A study of Arabidopsis thaliana with 12 samples.

Results

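Poly(A) RNA of Arabidopsis thaliana Col-0 seedlings was read after and without the step that pulls out RNA molecules carrying a synthetic tag, and the report describes how that step changed which transcripts were read. The comparison uses 6 of the 12 libraries of the series, chosen by their labels alone: 3 libraries of poly(A) RNA treated with the enzyme ADPRC and enriched for tagged RNA, and 3 libraries of poly(A) RNA treated with ADPRC and not enriched. All plants were 12-day-old wild-type seedlings grown on plates without a further treatment. Another 4 poly(A) libraries, in which ADPRC was left out, served as the background of the enrichment step: 3 were enriched and 1 was not. The 2 remaining libraries, of total RNA, were not used here. Whether the replicates are separate cultures is not stated in the labels, and p-values therefore reflect the spread among these libraries alone, which can be technical.

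Some RNAs carry nicotinamide adenine dinucleotide (NAD+) at the 5' end in place of the methylguanosine cap of most messenger RNAs. In NAD tagSeq, ADPRC (adenosine diphosphate ribosylcyclase) exchanges the nicotinamide of this NAD+ for a reactive group, a tag RNA is coupled to it, and the tag then serves as a handle for pulling the molecule out and as a mark that is read with the molecule on a Nanopore direct RNA flow cell. Reads in which the authors found no tag are called untagged here, and the rule by which they called a read tagged is not stated in the labels or file headers.

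The enriched libraries with ADPRC held 1175516 to 1233999 reads each and the unenriched ones with ADPRC 378322 to 619122. Tagged reads made up 23.9%, 20.9% and 14.1% of the enriched libraries, against 0.586%, 0.743% and 0.546% of the unenriched libraries. Most reads of the enriched libraries were therefore untagged, 894488 to 1059639 per library. The enriched libraries without ADPRC held 390009 to 948433 reads, of which 0.132% to 0.224% were tagged, and the unenriched library without ADPRC held 434742 reads, 9 of them tagged. Levels are given in CPM, reads of a gene per 1000000 reads of the library. For untagged reads they are per 1000000 untagged reads of the library. They are not corrected for transcript length, so they are compared between libraries and not between genes. Where no read was seen, counting error alone leaves room for 3 reads, or 2.43 to 2.55 CPM in the enriched and 4.85 to 7.93 CPM in the unenriched libraries. The green tissue and root genes used to check the tissue fit a seedling: RBCS1A, a small subunit of Rubisco, lay between 21987 and 26259 CPM in enriched and between 15590 and 18995 CPM in unenriched libraries, and 3 of 5 root genes reached a mean of 10 CPM, none of them called different. In such bulk RNA, fewer cells of a type and less RNA per cell cannot be told apart.

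Among all reads, 876 of 8684 tested genes were higher after enrichment (10.1%) and 593 were lower (6.83%), by limma on log2 CPM with a Benjamini-Hochberg adjusted p under 0.05. Among untagged reads, 907 of the same genes were higher (10.4%) and 478 were lower (5.5%). Calls were more frequent among abundant genes. Of the 2171 tested genes with the highest mean CPM, 18.4% were higher and 17.2% lower among all reads, and 17.8% and 14.5% among untagged reads. Counts in lists of abundant genes are to be read against these shares. The median gene moved by 0.08 on the log2 scale among all reads and by 0.16 among untagged reads, so each change below is to be read against these medians. The split depends on the scaling: with every library centred on its median, 687 genes were higher and 717 lower among all reads, and 558 higher and 714 lower among untagged reads. Quantile normalization gave 775 higher and 749 lower among all reads and 654 higher and 645 lower among untagged reads. DESeq2 gave 410 and 460 for all reads and 286 and 454 for untagged reads. With untagged reads left relative to all reads of the library, the median shift was -0.13, and 360 genes were higher and 1065 lower. Without the second enriched library the counts of called genes dropped to 915 for all reads and 804 for untagged reads, and without the third to 803 for untagged reads. The third enriched library had the flattest distribution, with 38.8% of its reads in its 100 most abundant genes, against 43.8% and 42.5% in the other enriched libraries and 42.3% to 43.4% in the unenriched ones.

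The largest falls were in RNAs other than the messenger RNAs of the nucleus. Ribosomal RNA, small nucleolar RNA (snoRNA, which guides the processing of ribosomal RNA) and plastid RNA were read far less often after enrichment, and the fall was seen among untagged reads as well as among all reads. Summed over the 4 listed nuclear rRNA genes, all reads gave 133, 157 and 142 CPM in enriched libraries, against 1858, 1780 and 1471 CPM in unenriched libraries, and the groups lie far apart. The enriched libraries without ADPRC had 131, 182 and 160 CPM, against 1468 CPM in the unenriched library without ADPRC.

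Both rRNA genes that reached the tested level fell, under every scaling tried. AT3G41768 had 80.8, 109 and 102 CPM in enriched libraries, against 1171, 1176 and 972 CPM in unenriched libraries, a log2 fold change of -3.50 ± 0.16 (SE, limma adjusted p = 4.0e-16). AT2G01010 had 49.3, 47.5 and 38.9 CPM, against 687, 598 and 493 CPM, a log2 fold change of -3.67 ± 0.18 (limma adjusted p = 2.1e-15). Of the 354 and 164 reads of these genes in the enriched libraries, 1 and 0 were tagged. Among untagged reads the log2 fold changes were -3.20 for AT3G41768 and -3.37 for AT2G01010. Reads of near-identical rRNA copies cannot be assigned with certainty, so the single values of these genes are less certain than their sum.

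The 38 listed snoRNA genes summed to 12.8, 18.8 and 14.6 CPM of all reads in enriched libraries, against 164, 155 and 164 CPM in unenriched ones. U3D (AT5G54075), a U3 snoRNA that takes part in cutting the rRNA precursor, was the only one of them tested, and it reached the tested level through the unenriched libraries alone. It had 2 reads in the 3 enriched libraries together, 1.7, 0 and 0 CPM, against 92.5, 67.8 and 82.2 CPM in the unenriched libraries with 123 reads. Per read sequenced, the unenriched libraries held 143 times as much, with an exact 95% interval of 38.9 to 1197 that covers counting error only. The fitted log2 fold change, -5.63 (limma adjusted p = 5.8e-10), depends on the pseudocount added. The 10 listed spliceosomal snRNA genes, none of which was tested, summed to 0.851, 0.819 and 0 CPM in enriched libraries, against 13.2, 16.2 and 14.3 CPM in unenriched ones.

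A further 94 entries carry an ENSRNA identifier that the supplied annotation does not name. They summed to 204, 231 and 212 CPM in enriched libraries, against 2080, 2371 and 2019 CPM in unenriched libraries. Of the 7 that were tested, 4 averaged under 10 CPM in the enriched libraries and reached the tested level only through the unenriched ones, which fixes their direction. The other 3 are given first. The most abundant, ENSRNA049451242-T1, had 83.4, 123 and 112 CPM, against 1110, 1221 and 972 CPM. Next came ENSRNA049494572-T1 with 49.3, 51.6 and 44.6 CPM, against 558, 602 and 479 CPM. ENSRNA049493837-T1, at 26.4, 18.8 and 8.1 CPM against 151, 233 and 207 CPM, was lower in every enriched library than in any unenriched one. ENSRNA049493776-T1, 1 of the 4, had 1.7, 0.819 and 0.81 CPM, against 44.9, 61.4 and 46.5 CPM.

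**Figure D1:**
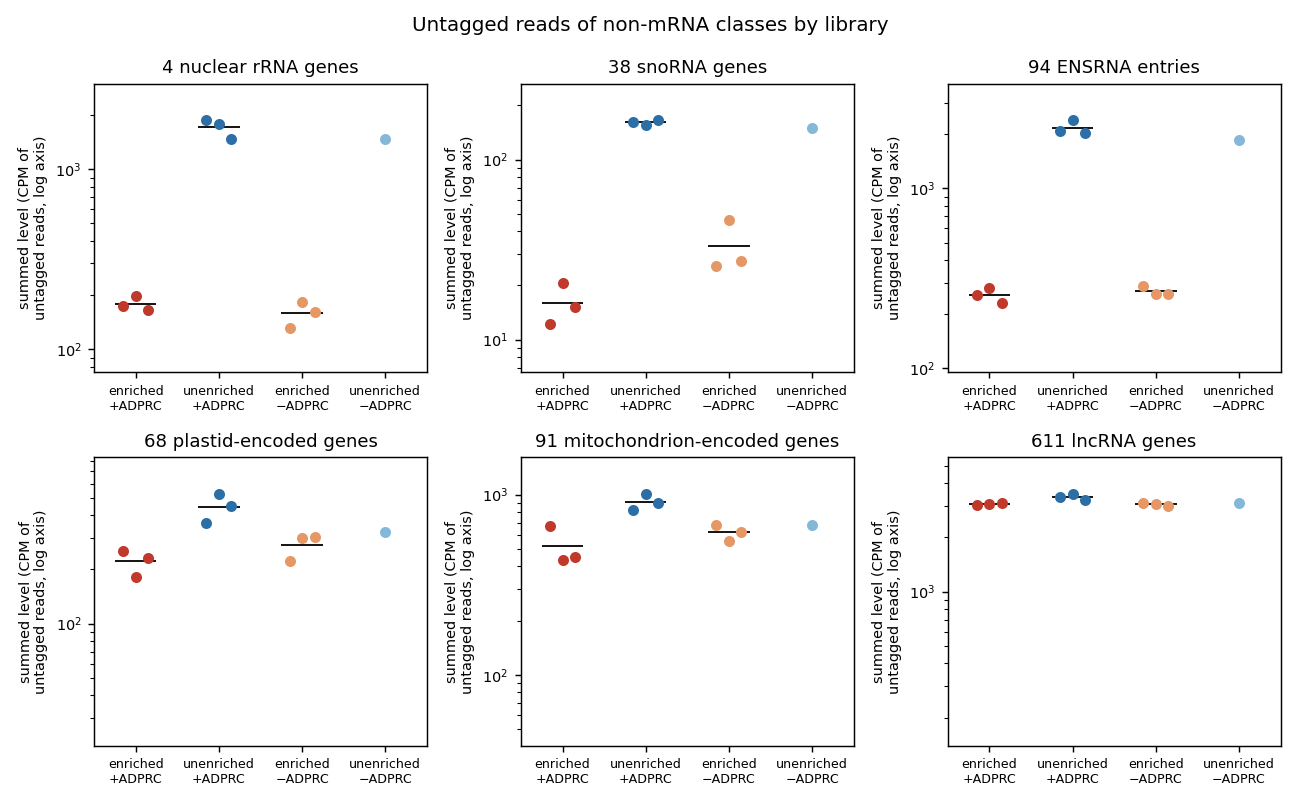
Summed level of untagged reads (CPM of untagged reads, log axis) of 6 classes of listed genes in each of 10 poly(A) libraries; points are libraries and horizontal lines are group means, and the lncRNA panel leaves out AT2G08665. The enriched libraries with ADPRC sit at 165 to 199 CPM for rRNA genes, against 1479 to 1869 CPM in the unenriched ones. The lncRNA sums differ less, at 3044 to 3094 CPM against 3245 to 3482 CPM.

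Long non-coding RNAs (lncRNAs) had few calls, and they fell in sum by far less than the rRNA and snoRNA genes. Of 51 tested lncRNA genes, 4 were higher (7.84%) and 7 lower (13.7%) among all reads, against 10.1% and 6.83% of all tested genes. Their median log2 fold change was -0.20. The counts were the same among untagged reads, against 10.4% and 5.5% of all tested genes, and centring left 2 higher and 8 lower there. AT2G08665 alone held most of the lncRNA reads, 4891, 5067 and 4975 CPM in enriched libraries against 12740, 12114 and 12764 CPM in unenriched ones. It overlaps the antenna gene LHB1B2, and the reads of overlapping genes cannot be assigned with certainty. Without it the lncRNA genes summed to 2945, 2936 and 3011 CPM in enriched libraries, against 3357, 3476 and 3234 CPM in unenriched ones. Of the 50 tested lncRNA genes then left, 4 were higher (8%) and 6 lower (12%) among all reads. The lower ones include the genes named next, so the counts are no result about the class. Within the class, AT5G06845, tested through its unenriched level alone, had 5.95, 0.819 and 0 CPM, against 92.5, 110 and 76.8 CPM, a log2 fold change of -5.15 (limma adjusted p = 2.8e-09). AT3G06355 had 37.4, 102 and 76.2 CPM, against 484, 591 and 486 CPM, a log2 fold change of -2.94 (limma adjusted p = 2.1e-10). It overlaps AT3G41979, so whether this fall is one of a lncRNA cannot be told from these reads.

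Reads of the plastid genome, which encodes core photosynthesis and ribosome components of the chloroplast, also fell in sum. The 68 listed plastid genes summed to 194, 143 and 199 CPM of all reads in enriched libraries, against 362, 520 and 447 CPM in unenriched libraries. Of the 4 that were tested, ATCG00920 and ATCG01210 reached the tested level only through the unenriched libraries, and ATCG01180 and ATCG00950 reached it in both groups and fell in both read sets. ATCG01180 had 69.8, 45.9 and 85.1 CPM, against 151, 200 and 182 CPM. ATCG00950 had 82.5, 57.4 and 71.3 CPM, against 124, 187 and 173 CPM. These organelle genes, unnamed in the supplied annotation, are given by their identifiers, and the 4 tested were chosen by level alone. Whether the fall lies in messenger RNA or in ribosomal RNA of the plastid cannot be read from these values. The same holds for the mitochondrial genes below.

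The mitochondrial genome gave a mixed result. Its 91 listed genes summed to 572, 379 and 400 CPM in enriched libraries, against 825, 1000 and 895 CPM in unenriched libraries. Of 5 tested genes, 3 fell in both read sets, among them ATMG01370, which reached the tested level only through the unenriched libraries. ATMG00020, the most abundant, had 195, 128 and 186 CPM, against 444, 572 and 475 CPM, a log2 fold change of -1.56 (limma adjusted p = 1.7e-07). ATMG00030 went the other way: among untagged reads it had 181, 117 and 104 CPM, against 66.5, 81.4 and 61.1 CPM, a log2 fold change of 0.90 (limma adjusted p = 0.0043) that did not pass the test without the rescaling of untagged reads. A stretch of mitochondrial DNA inserted in nuclear chromosome 2 was looked at after the values were seen. Of 6 tested genes between AT2G07671 and AT2G07777, 4 fell among all reads and 5 among untagged reads. AT2G07698 and AT2G07777 reached the tested level only through the unenriched libraries. AT2G07671 had 41.7, 11.5 and 18.6 CPM of all reads, against 153, 108 and 114 CPM, a log2 fold change of -2.50 (limma adjusted p = 7.4e-07). Reads of such genes and of their mitochondrial copies cannot be told apart with certainty.

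The genes that rose most were messenger RNAs of the nucleus, and the top pair stood well above all others. AT2G24060, which encodes a chloroplast translation initiation factor of the IF3 family, had 625, 837 and 680 CPM of all reads in enriched libraries, against 18.5, 27.5 and 34.0 CPM in unenriched libraries. Its mean was 26.8 times higher, and its log2 fold change was 4.71 ± 0.20 (SE, limma adjusted p = 2.5e-16). AT5G53140, which encodes a protein phosphatase of the PP2C family, had 897, 818 and 746 CPM, against 66.1, 48.5 and 55.4 CPM. Its mean was 14.5 times higher, with a log2 fold change of 3.83 ± 0.17 (limma adjusted p = 2.5e-16).

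These 2 transcripts were almost never tagged: 17 of 2596 reads of AT2G24060 (0.65%) and 1 of 2973 reads of AT5G53140 in the enriched libraries carried the tag. Among untagged reads their log2 fold changes were 5.00 and 4.14. Without ADPRC the same was seen at higher levels. There AT2G24060 had 1387, 2757 and 2250 CPM of all reads in enriched libraries, against 32.2 CPM in the unenriched library. AT5G53140 had 2023, 2698 and 2773 CPM, against 55.2 CPM. AT2G24060 overlaps AT2G24070 in the annotation.

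The other 8 genes named for the largest rises had 12.2% to 45.0% of their reads tagged in the enriched libraries, against 14.1% to 23.9% of all reads there. AT1G04800, a glycine-rich protein gene, had 104, 73.7 and 135 CPM in enriched libraries, against 10.6, 22.6 and 14.3 CPM in unenriched libraries. AT3G10020 had 125, 183 and 160 CPM, against 21.1, 17.8 and 35.7 CPM. AT3G62550, which encodes a universal stress protein, had 84.2, 249 and 139 CPM, against 26.4, 22.6 and 19.7 CPM. In the enriched libraries 18.5%, 28.0% and 45.0% of the reads of these 3 genes were tagged. Their log2 fold changes were 2.65, 2.63 and 2.59 among all reads, and 2.63, 2.56 and 2.03 among untagged reads. AT4G29020, another glycine-rich protein gene, had 336, 283 and 358 CPM, against 55.5, 79.1 and 51.8 CPM, a log2 fold change of 2.39 ± 0.19 (limma adjusted p = 3.2e-10). AT1G54410, a dehydrin gene, had 299, 532 and 608 CPM, against 103, 85.6 and 75.1 CPM, a log2 fold change of 2.38 ± 0.21 (limma adjusted p = 1.3e-09). COL4, a CONSTANS-like zinc finger gene, had 265, 334 and 331 CPM, against 58.2, 50.1 and 80.4 CPM. AT2G05510, of the glycine-rich protein family, had 26.4, 44.2 and 58.3 CPM, against 2.64, 8.08 and 8.93 CPM, so that its unenriched values rest on few reads and it was tested through its enriched level alone. AT5G03660, named for its rise among untagged reads, had 41.4, 84.9 and 74.6 CPM there, against 10.6, 13.0 and 12.6 CPM. In all of these genes every enriched library lay above every unenriched one, as the rule for naming them requires.

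**Figure D2:**
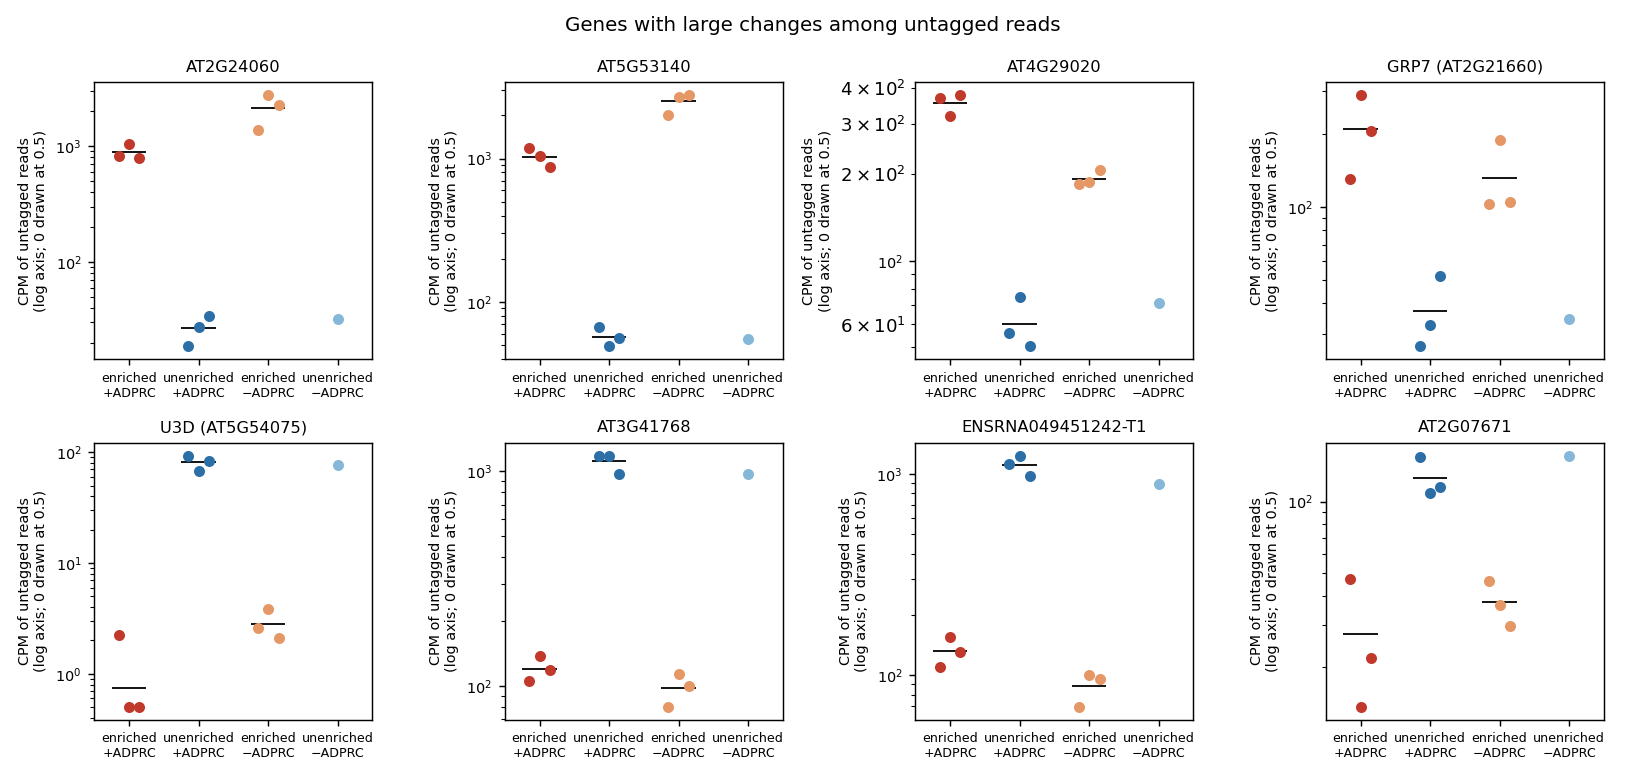
Level of untagged reads (CPM of untagged reads, log axis, with 0 drawn at 0.5) of 4 genes that rose and 4 that fell, in each of 10 poly(A) libraries; points are libraries and horizontal lines are group means. AT2G24060 and AT5G53140 are higher in every enriched library with or without ADPRC than in any unenriched one, and U3D, AT3G41768, ENSRNA049451242-T1 and AT2G07671 are lower.

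Cold response, dehydrin and glycine-rich RNA-binding genes were the list with the clearest rise. Of 10 tested members, 8 were higher (80%) and none lower in both read sets, by limma, against 10.1% and 10.4% of all tested genes higher. The median log2 fold change was 1.22 among all reads and 0.97 among untagged reads. Without the rescaling of untagged reads 7 were higher and 1 lower. GRP7, a glycine-rich RNA-binding protein that is part of a circadian feedback loop, had 114, 267 and 198 CPM, against 26.4, 32.3 and 51.8 CPM, a log2 fold change of 2.32 ± 0.26 (limma adjusted p = 2.2e-07). Its relative CCR1 (AT4G39260), named after its values were seen, had 367, 299 and 358 CPM, against 92.5, 63.0 and 91.1 CPM. ERD14, a dehydrin, had 595, 565 and 555 CPM, against 389, 320 and 322 CPM, a log2 fold change of 0.74. COR413-PM1, a cold-regulated membrane protein, had 434, 626 and 492 CPM, against 285, 247 and 261 CPM. RCI2A, a small membrane protein induced by cold, had 523, 620 and 476 CPM, against 259, 184 and 236 CPM. The 2 tested members that did not pass were COR413IM1 and KIN2, with log2 fold changes of 0.66 and -0.12 among all reads.

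Among photosynthesis genes the Rubisco small subunit and the light-harvesting antenna moved in opposite directions. Rubisco fixes carbon dioxide, and its small subunits are encoded by a nuclear family of near-identical copies whose reads cannot be assigned with certainty. Summed over the 4 copies, all reads gave 81612, 75950 and 64956 CPM in enriched libraries, against 38243, 43168 and 43918 CPM in unenriched ones. All 4 were higher among all reads, with a median log2 fold change of 0.65, and 3 of 4 were higher among untagged reads, with a median of 0.36. Centring each library left 2 of 4 called higher among all reads and 1 of 4 among untagged reads, and the untagged reads without rescaling gave 1 of 4.

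RBCS3B showed the largest rise of the family. It had 37401, 34493 and 27979 CPM of all reads in enriched libraries, against 13642, 14545 and 15230 CPM in unenriched libraries, a log2 fold change of 1.19 ± 0.11 (limma adjusted p = 3.9e-09). In the enriched libraries 46.5% of its reads were tagged. Among untagged reads it had 23665, 22929 and 20027 CPM, against 13377, 14157 and 14920 CPM, a log2 fold change of 0.65 ± 0.09 (limma adjusted p = 2.5e-05). That untagged call was lost when every gene with a read was tested (limma adjusted p = 0.063). RBCS2B, with 43.3% of its reads tagged, had a log2 fold change of 0.81 among all reads and 0.34 among untagged reads. RBCS1A, with 25.6% tagged, had 0.49 and 0.38. The call of RBCS1A among all reads was lost after centring (0.41, limma adjusted p = 0.13), with DESeq2 (0.44, adjusted p = 0.086) and under quantile normalization (0, limma adjusted p = 1). Its untagged call was lost with the same 3 (0.19 to 0.25, adjusted p = 0.088 to 0.38) and without the rescaling of untagged reads (0.08, limma adjusted p = 0.60). That of RBCS2B was lost after centring (0.18, limma adjusted p = 0.47), with DESeq2 (0.21, adjusted p = 0.51) and without the rescaling (0.03, limma adjusted p = 0.88). The untagged call of RBCS1A was also lost without the first unenriched library (0.30, limma adjusted p = 0.072), and that of RBCS2B without the first (0.29, limma adjusted p = 0.12) or the second (0.32, limma adjusted p = 0.13).

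Antenna proteins bind the chlorophyll that passes light energy to the photosystems. Of 20 antenna genes, 2 were higher (10%) and 10 lower (50%) among all reads, by limma, with a median log2 fold change of -0.32. The shares of the 2171 most abundant tested genes were 18.4% and 17.2%. Among untagged reads 1 antenna gene was higher (5%) and 9 lower (45%), with a median of -0.30, against shares of 17.8% and 14.5%. Quantile normalization gave 3 higher and 7 lower among all reads and 2 higher and 4 lower among untagged reads, and without rescaling 14 were lower. CAB1 had 13882, 15086 and 15077 CPM of all reads in enriched libraries, against 23699, 25533 and 24038 CPM in unenriched libraries, a log2 fold change of -0.73 ± 0.10 (limma adjusted p = 5.3e-06). LHB1B2 had 4609, 4946 and 4861 CPM, against 12606, 12064 and 12500 CPM, a log2 fold change of -1.37 ± 0.11 (limma adjusted p = 1.7e-10). It overlaps the lncRNA entry AT2G08665, so the falls of LHB1B2 and AT2G08665 may rest on the same reads. CAB1 and LHB1B2 were tagged in fewer than 1 in 10 reads, 7.44% and 7.21%, and both fell among untagged reads too, by 0.54 and 1.17 on the log2 scale. The untagged call of CAB1 was lost when every gene with a read was tested (limma adjusted p = 0.077). LHCA4, an antenna protein of photosystem I, had 6186, 7895 and 7407 CPM, against 9629, 9735 and 9778 CPM, and fell by 0.45 on the log2 scale in both read sets, with 19.4% of its reads tagged. Under quantile normalization LHCA4 lost both calls (-0.16, limma adjusted p = 0.22, and -0.15, limma adjusted p = 0.31). The 2 antenna genes that rose among all reads were LHCB4.1 and Lhca5, by 0.34 and 0.74.

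**Figure D3:**
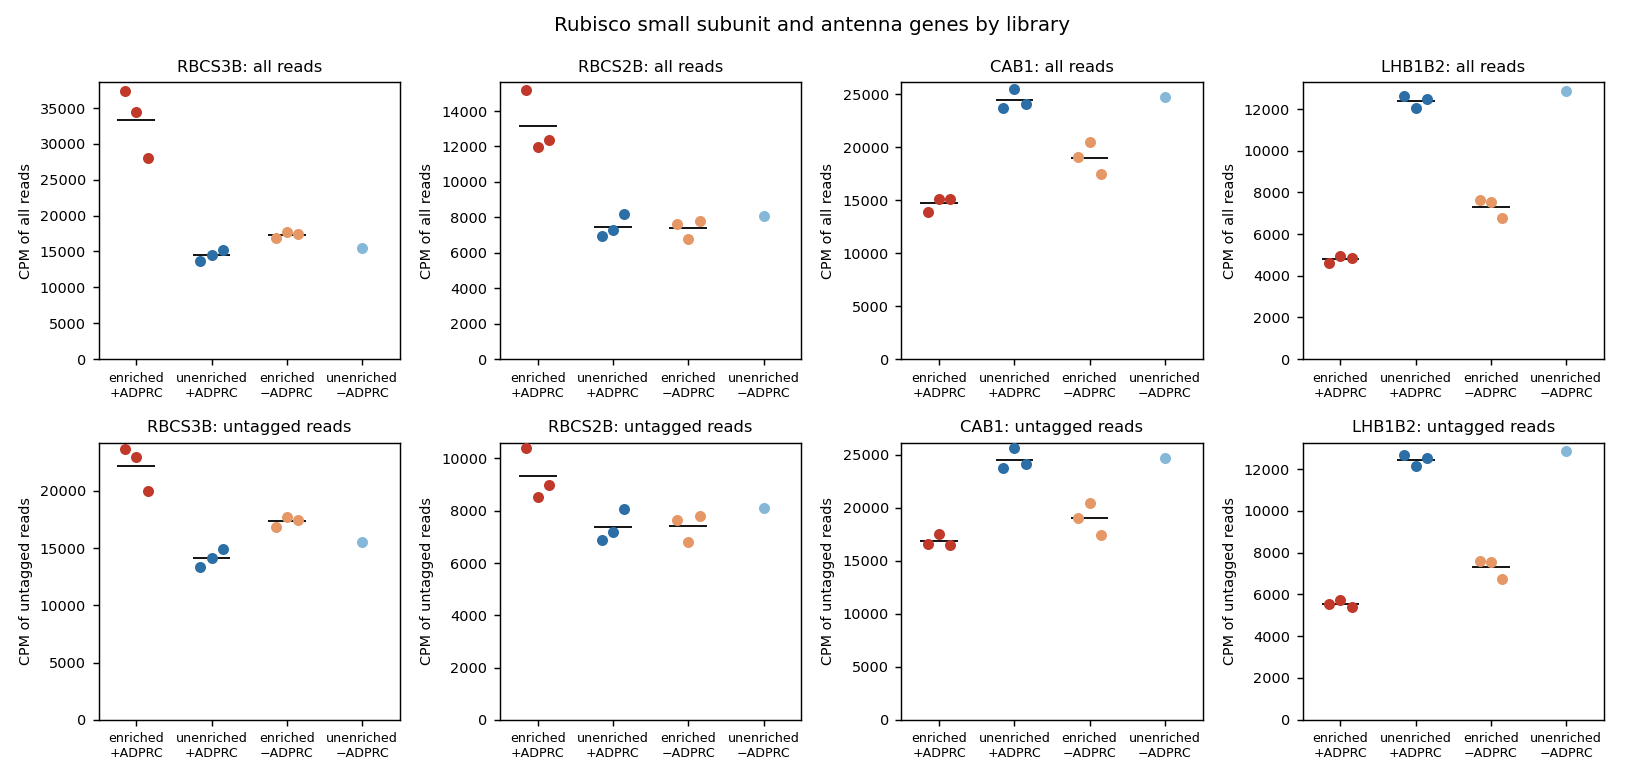
Level of RBCS3B, RBCS2B, CAB1 and LHB1B2 in CPM of all reads (upper row) and of untagged reads (lower row) in each of 10 poly(A) libraries; points are libraries and horizontal lines are group means. The RBCS genes are higher in enriched libraries with ADPRC and CAB1 and LHB1B2 lower, and the gap of RBCS3B narrows among untagged reads.

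Nuclear genes of the photosystems and electron transport leaned upward, but the lean depends on the scaling. Of 33 genes, 9 were higher (27.3%) and 3 lower (9.09%) among all reads, against 18.4% and 17.2% of the 2171 most abundant tested genes. Among untagged reads 12 were higher (36.4%) and 3 lower (9.09%), against 17.8% and 14.5%. The list medians were 0.14 and 0.09. After centring, 3 were higher and 1 lower among all reads and 5 higher and 4 lower among untagged reads, quantile normalization gave 16 higher and 2 lower and 14 higher and 2 lower, and untagged reads without rescaling gave 3 higher and 13 lower. The extremes of the list, named after their values were seen, were a pair of photosystem I subunits. PSAD-2 had 3163, 5093 and 2973 CPM, against 1647, 1638 and 1680 CPM, a log2 fold change of 1.13. PSAN had 3621, 2900 and 2631 CPM, against 5871, 6028 and 5965 CPM, a log2 fold change of -0.98. The 3 most abundant members belong to photosystem II and did not pass the test among all reads: the log2 fold changes of PSBR, PSBX and PSBW were -0.23, 0.14 and 0.33. PSBW, with 44.1% of its reads tagged, had 10148, 8940 and 7403 CPM of all reads, against 6767, 6806 and 7377 CPM, and 6441, 6589 and 5441 CPM of untagged reads, against 6671, 6704 and 7266 CPM. It passed the test among all reads under quantile normalization (0.54, limma adjusted p = 5.9e-05), with edgeR (adjusted p = 0.045), with a pseudocount of 5 (limma adjusted p = 0.048), at a minimum mean of 50 CPM (limma adjusted p = 0.032) and without the third enriched library (0.45, limma adjusted p = 0.0061). PSBX passed under quantile normalization (0.34, limma adjusted p = 0.0090), and PSBR without the first enriched library (-0.27, limma adjusted p = 0.029). Among untagged reads without rescaling, PSBW (-0.47, limma adjusted p = 0.00026) and PSBX (-0.33, limma adjusted p = 0.016) were called lower. PSBR was called lower among untagged reads (-0.30). That call was lost without the third enriched library or any one unenriched library (limma adjusted p = 0.057 to 0.15).

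Photorespiration genes fell or did not pass the test, while the called Calvin cycle genes went both ways. Of 16 photorespiration genes, which recycle the product of Rubisco's reaction with oxygen, 7 were lower (43.75%) and none higher among all reads. Among untagged reads 5 were lower (31.25%), and the medians were -0.27 and -0.22. Of the 2171 most abundant tested genes, 17.2% were lower among all reads and 14.5% among untagged reads. CAT2, the leaf catalase, had 1170, 904 and 1226 CPM, against 2392, 2043 and 2134 CPM, a ratio of means of 0.502 (limma adjusted p = 3.5e-06). GOX1, a glycolate oxidase, had 1034, 973 and 1027 CPM, against 1824, 1935 and 1923 CPM, a log2 fold change of -0.90 (limma adjusted p = 4.9e-06). GGT1, a glutamate:glyoxylate aminotransferase, fell by 0.50 among all reads, and its log2 fold change among untagged reads, -0.25, did not pass the test.

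Of 17 Calvin cycle genes, 2 were higher (11.8%) and 6 lower (35.3%) among all reads, against 18.4% and 17.2% of the 2171 most abundant. Among untagged reads 3 were higher (17.6%) and 4 lower (23.5%), against 17.8% and 14.5%. The list medians were -0.13 and 0.04. Centring gave 1 higher and 6 lower among all reads and 1 higher and 5 lower among untagged reads, quantile normalization 3 higher and 6 lower and 4 higher and 3 lower, and untagged reads without rescaling 1 higher and 8 lower. FBA2, a plastid aldolase, had 2424, 1655 and 1921 CPM, against 3595, 3789 and 3863 CPM, a log2 fold change of -0.92 (limma adjusted p = 7.2e-06). RCA, the activase that reopens Rubisco's active site, had 8435, 6923 and 8032 CPM, against 10843, 10998 and 10974 CPM, a log2 fold change of -0.49. Its untagged value, -0.31, lost its call without any one of 5 libraries, the exception being the first enriched one, with limma adjusted p-values of 0.055 to 0.16, and also under quantile normalization (-0.10, limma adjusted p = 0.47) and with DESeq2 (-0.44, adjusted p = 0.052). FBA1 fell by 0.72 among all reads, and lost its call with DESeq2 (-0.65, adjusted p = 0.37) and without the third unenriched library (-0.64, limma adjusted p = 0.056). Among untagged reads it had -0.53 and did not pass, and it passed without the first enriched library (-0.94, limma adjusted p = 1.3e-06), after centring (-0.68, limma adjusted p = 0.047), with a pseudocount of 5 (limma adjusted p = 0.047) and without the rescaling (-0.84, limma adjusted p = 0.00050). EMB3119, a ribose 5-phosphate isomerase named after its values were seen, rose by 1.16 among all reads. None of 7 cytosolic glycolysis genes was higher, 3 were lower among all reads (42.9%) and 0 among untagged reads, where 4 were lower without the rescaling.

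**Figure D4:**
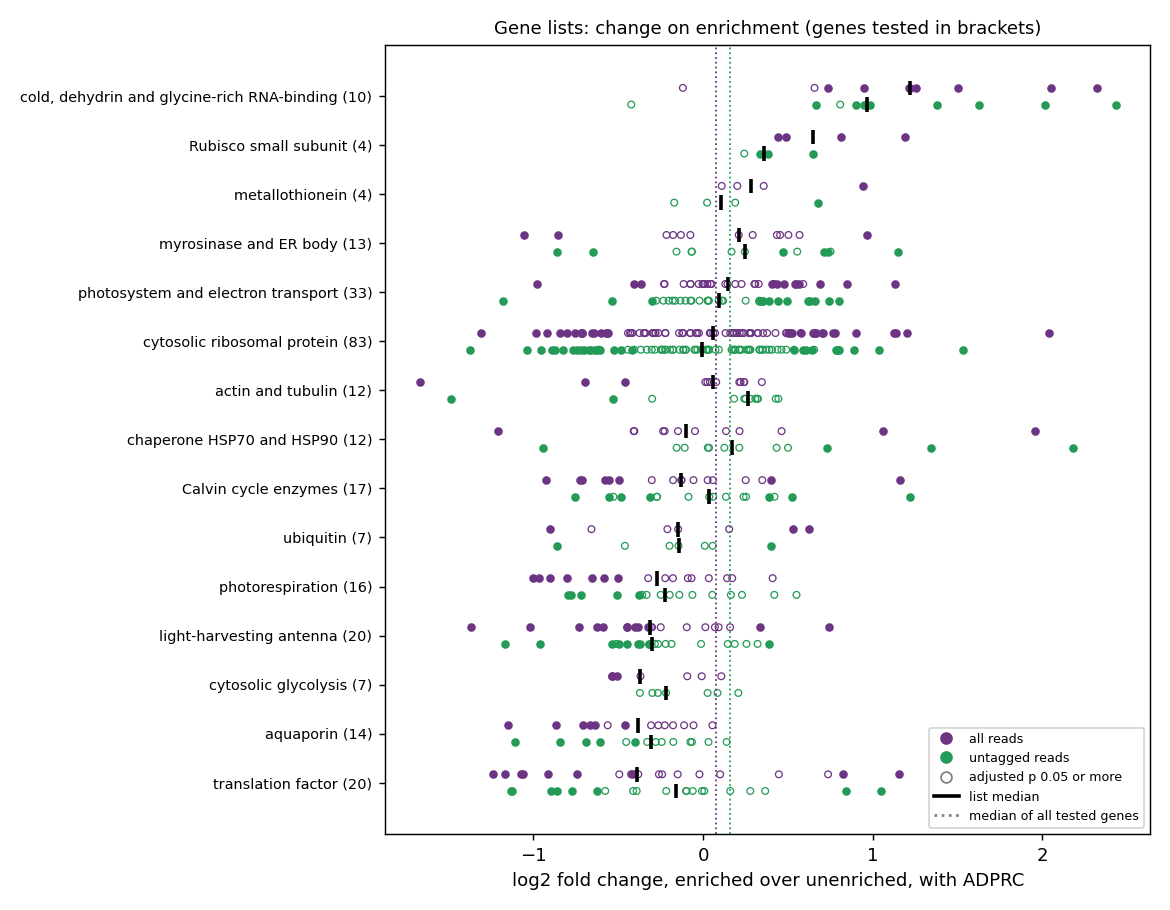
Log2 fold change, enriched over unenriched with ADPRC, of the tested members of 15 gene lists among all reads and among untagged reads; filled points have a limma adjusted p under 0.05, black bars are list medians and dotted lines are the medians of all tested genes, 0.08 and 0.16. The cold response, dehydrin and glycine-rich RNA-binding list lies farthest right, with a median of 1.22 among all reads, and the translation factors farthest left among all reads, with -0.39.

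The translation machinery did not move as one. Of 20 tested translation factors, 2 were higher (10%) and 7 lower (35%) among all reads, against 18.4% and 17.2% of the 2171 most abundant genes. Among untagged reads 2 were higher (10%) and 6 lower (30%), against 17.8% and 14.5%. The list medians were -0.39 and -0.16. TCTP, the translationally controlled tumor protein, had 5769, 2984 and 2468 CPM, against 8522, 7574 and 7462 CPM, a log2 fold change of -1.17 (limma adjusted p = 2.3e-05). The first enriched library lay closest to the unenriched ones, and the call was lost with DESeq2 (-1.08, adjusted p = 0.11). FBR12, an eIF5A, and AT5G60390, an elongation factor 1-alpha, had log2 fold changes of -0.02 and -0.26 and did not pass. Of 83 tested cytosolic ribosomal protein genes, 17 were higher and 15 lower among all reads (median 0.06), and 11 were higher and 18 lower among untagged reads (-0.01). Among all reads that is 20.5% and 18.1%, near the 18.4% and 17.2% of the 2171 most abundant tested genes. The counts among all reads are therefore no result about these genes. Among untagged reads it is 13.3% and 21.7%, against 17.8% and 14.5%. Centring gave 12 higher and 14 lower and 6 higher and 20 lower, and untagged reads without rescaling 4 higher and 33 lower. The extremes, named after their values were seen, were AT3G04840 and AT2G36160. AT3G04840 had 645, 683 and 737 CPM, against 132, 174 and 200 CPM, a log2 fold change of 2.04. AT2G36160 had 117, 100 and 119 CPM, against 254, 297 and 286 CPM, a log2 fold change of -1.31. The most abundant member, emb2171, had 2185, 1242 and 1308 CPM, against 1131, 1158 and 960 CPM, a log2 fold change of 0.50 (limma adjusted p = 0.030). That call was lost without the first enriched library (0.24, limma adjusted p = 0.18) or without any one unenriched library (0.41 to 0.55, limma adjusted p = 0.056 to 0.16), after centring (0.43, limma adjusted p = 0.16) and with DESeq2 (0.52, adjusted p = 0.15). AT5G18380 and AT5G20290, both 40S subunit genes, had 0.07 and -0.29 and did not pass.

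Of 12 tested chaperones of the HSP70 and HSP90 families, 2 were higher and 1 lower among all reads and 3 higher and 1 lower among untagged reads (medians -0.10 and 0.17). Among all reads that is 16.7% and 8.33%, against 10.1% and 6.83% of all tested genes, so the counts are no result about the families. HSC70-1, a cytosolic HSP70, had 628, 486 and 627 CPM, against 1330, 1468 and 1220 CPM, a log2 fold change of -1.21 (limma adjusted p = 3.2e-07). BIP1 and BIP2, HSP70 proteins of the endoplasmic reticulum named after their values were seen, were the 2 that rose among all reads. BIP1 had 64.7, 45.1 and 80.2 CPM, against 7.93, 17.8 and 23.2 CPM, a log2 fold change of 1.96 (limma adjusted p = 7.3e-05), and BIP2 rose by 1.06. SHD, the HSP90 of the endoplasmic reticulum, had -0.41 and did not pass. The plastid member cpHsc70-1 had 0.46 among all reads and rose by 0.73 among untagged reads (limma adjusted p = 0.0078), a call lost with DESeq2 (0.62, adjusted p = 0.083), without the rescaling (0.42, limma adjusted p = 0.16) and without the third enriched library (0.65, limma adjusted p = 0.056). BIP1 and BIP2 are close copies, and their reads may be split between them.

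Aquaporins, the water channels of the plasma membrane and the vacuole, fell or did not pass. Of 14 tested, 6 were lower among all reads (42.9%, median -0.38) and 5 among untagged reads (35.7%, median -0.30), and none was higher. Among the 2171 tested genes with the highest mean CPM, the shares called lower were 17.2% and 14.5%. Of the 3 most abundant aquaporins, TIP2 and DELTA-TIP of the vacuole had -0.26 and -0.11 among all reads and did not pass. TIP2 passed under quantile normalization (-0.28, limma adjusted p = 0.039) and without the first enriched library (-0.30, limma adjusted p = 0.042), and so did DELTA-TIP among untagged reads (-0.38, limma adjusted p = 0.020). PIP1B of the plasma membrane had 2151, 1653 and 1920 CPM, against 2847, 2468 and 2527 CPM, a log2 fold change of -0.46 (limma adjusted p = 0.011). The call of PIP1B was lost without the second enriched library (-0.36, limma adjusted p = 0.067) or the first unenriched one (-0.40, limma adjusted p = 0.074).

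Actin and tubulin genes, often used to normalise expression, included one of the larger falls of a messenger RNA. ACT8 had 202, 147 and 165 CPM, against 597, 575 and 466 CPM, a log2 fold change of -1.67 ± 0.16 (limma adjusted p = 1.5e-08). ACT2, closely related to it, had 556, 397 and 476 CPM, against 827, 791 and 681 CPM, a log2 fold change of -0.69. ACT7 had 0.35 and did not pass. Of 12 members, 3 were lower (25%) and none higher among all reads, and 2 were lower (16.7%) among untagged reads. Of the 2171 most abundant tested genes 17.2% and 14.5% were lower, so the counts are no result about the list. The untagged call of ACT2 (-0.53) was lost without the second enriched (-0.39, limma adjusted p = 0.092), the first unenriched (-0.47, limma adjusted p = 0.054) or the second unenriched library (-0.51, limma adjusted p = 0.061).

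The other lists are short, so single calls make up large shares of them. Of 7 ubiquitin genes, 2 were higher (28.6%) and 1 lower (14.3%) among all reads, against 10.1% and 6.83% of all tested genes. Of the 2171 most abundant tested genes, 18.4% were higher and 17.2% lower. Among untagged reads 1 ubiquitin gene was higher and 1 lower (14.3% each), against 10.4% and 5.5% of all tested genes. The shares of the most abundant genes there were 17.8% and 14.5%. Centring left 0 ubiquitin genes higher and 1 lower in both read sets. UBQ10 had 1952, 1862 and 1725 CPM, against 2072, 1906 and 2157 CPM, a log2 fold change of -0.15 that did not pass. UBQ1, which encodes ubiquitin fused to a ribosomal protein, had 1422, 781 and 817 CPM of all reads, against 663, 724 and 629 CPM, and 850, 526 and 659 CPM of untagged reads, against 651, 706 and 627 CPM. Its call among all reads (0.53, limma adjusted p = 0.028) was lost without the first enriched (0.25, limma adjusted p = 0.18) or any one unenriched library (0.48 to 0.58, limma adjusted p = 0.053 to 0.12), after centring (0.46, limma adjusted p = 0.14) and with DESeq2 (0.56, adjusted p = 0.13). The untagged call of UBQ11 (0.40, limma adjusted p = 0.048) was lost without any one of 5 libraries, the third enriched one excepted (0.26 to 0.44, limma adjusted p = 0.082 to 0.17), after centring (0.25, limma adjusted p = 0.36), with DESeq2 (0.29, adjusted p = 0.42) and without the rescaling (0.09, limma adjusted p = 0.70).

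Of 4 metallothioneins, small metal-binding proteins, 1 was higher (25%) and none lower in both read sets. The shares called higher of the 2171 most abundant tested genes were 18.4% and 17.8%. MT2B, MT3 and MT2A, the abundant ones, had log2 fold changes of 0.11, 0.20 and 0.36 among all reads and did not pass, though MT2A passed without the third enriched library (0.60, limma adjusted p = 0.0097). Without the rescaling of untagged reads, 0 were higher and 1 was lower. Of 13 genes of myrosinases and endoplasmic reticulum bodies, which serve glucosinolate-based defence, 1 was higher (7.69%) and 2 lower (15.4%) among all reads. Among untagged reads 4 were higher (30.8%) and 2 lower (15.4%), against 10.4% and 5.5% of all tested genes and 17.8% and 14.5% of the 2171 most abundant. Centring gave 2 higher and 2 lower among untagged reads, and no rescaling 1 higher and 3 lower. PYK10, the main beta-glucosidase of these bodies, had 1228, 1254 and 1532 CPM, against 3103, 2500 and 2754 CPM, a log2 fold change of -1.06 (limma adjusted p = 7.6e-07). PBP1 and TGG1 had -0.13 and -0.08 and did not pass, and TGG1 stood at 263 CPM in the first enriched library, against 609 and 612 CPM in the others. Without that library TGG1 passed the test among untagged reads (0.52, limma adjusted p = 0.0054). The 3 tested root genes, CASP1, RCI3 and PRP3, had 0.32, -0.10 and 0.37 and did not pass.

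Among all reads, more of the short genes than of the long ones were called higher. Genes were split into 4 equal bins by the length of the gene in the reference annotation, introns included. In the shortest bin, up to 1637 bp, 388 of 2167 genes were higher and 132 lower among all reads. In the longest bin, from 3111 bp, 82 of 2165 were higher and 132 lower. Among untagged reads the counts were 307 higher and 160 lower in the shortest bin and 149 higher and 55 lower in the longest. After centring the untagged counts were 181 higher and 232 lower in the shortest bin and 98 higher and 106 lower in the longest, and without the rescaling 131 higher and 347 lower and 62 higher and 169 lower. The median log2 fold change ran from 0.22 in the shortest to -0.05 in the longest bin among all reads, and lay between 0.14 and 0.17 in every bin among untagged reads. Abundance differs between these bins. Among genes at a mean of 50 CPM or more, 171 of 628 were higher and 64 lower in their shortest bin among all reads, against 50 of 625 higher and 142 lower in their longest. Among untagged reads of these genes, 151 were higher and 83 lower in the shortest and 76 higher and 79 lower in the longest bin. The part of read length in these counts was not tested.

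**Figure D5:**
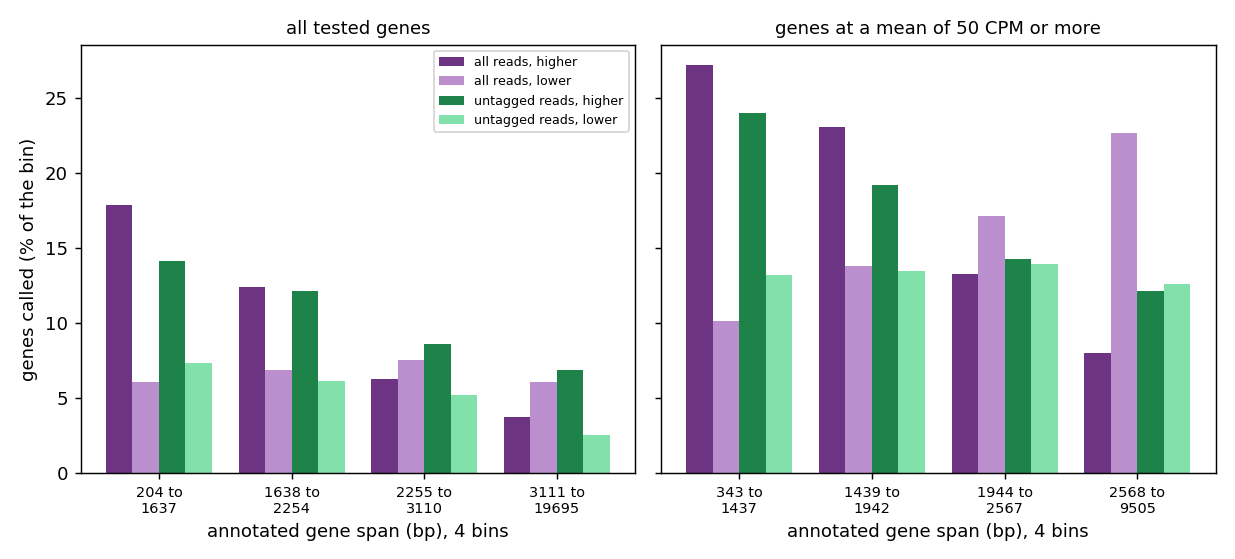
Share of genes called higher or lower (% of the bin) by bin of annotated gene span (bp), for all tested genes (left) and for genes at a mean of 50 CPM or more (right), enriched over unenriched with ADPRC. Among all reads the share called higher falls from 17.9% in the shortest bin to 3.79% in the longest, and among untagged reads from 14.2% to 6.88%.

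The 4 libraries without ADPRC give the background of the enrichment step in the absence of the tagging enzyme. The change among untagged reads with ADPRC was compared with the change without ADPRC in one limma fit over 10 libraries, in which the single unenriched library without ADPRC was assumed to vary like the others. Of 8825 genes, 0 differed at an adjusted p under 0.05 (0%), 618 had an unadjusted p under 0.05, and edgeR and DESeq2 called 0 as well, with 420 and 138 at an unadjusted p under 0.05. In simulated data the same fit recovered 43% of genes whose change differed by 2 on the log2 scale and 4% of those that differed by 1.

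The values with and without ADPRC are given side by side for the classes and lists above. The log2 change of the rRNA gene AT3G41768 among untagged reads was -3.19 with and -3.30 without ADPRC, a difference of 0.11 ± 0.28 (SE). The untagged sums of the ENSRNA entries were 8.46 times lower after enrichment with ADPRC and 6.96 times lower without it, and the snoRNA sums 10.1 and 4.52 times lower. The plastid sums were 2.01 times lower with and 1.18 times lower without ADPRC, and the mitochondrial sums 1.76 and 1.10 times lower. These sums were not tested, and among the plastid genes ATCG01180 had the largest difference, -1.32 (limma adjusted p = 0.33). The cold response, dehydrin and glycine-rich list had medians of 0.98 with and 0.92 without ADPRC, and the antenna list -0.30 and -0.20. AT5G53140 changed by 4.13 with and 5.45 without ADPRC, a difference of -1.31 ± 0.28 that did not pass over all genes (limma adjusted p = 0.21). RBCS3B changed by 0.65 with and 0.16 without ADPRC, a difference of 0.49 ± 0.17 (limma adjusted p = 0.57). GRP2, a glycine-rich cold shock domain protein gene named after its values were seen, had 680, 750 and 726 CPM of untagged reads with ADPRC in enriched libraries, against 226, 246 and 232 CPM in unenriched ones. Without ADPRC it had 259, 258 and 266 CPM in enriched libraries, against 189 CPM in the unenriched one, and its difference of 1.14 did not pass (limma adjusted p = 0.21).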

How the data were processed

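The authors deposited 2 tables, of all reads and of tagged reads, whose values are named TPM per the file headers. The deposited numbers have the properties of CPM: reads per gene relative to all reads of the library, without length correction. All 175051 all-read and 38579 tagged values above 0 in the 10 poly(A) libraries were whole multiples of 1 read (tolerance 0.01). The sources used here do not give the base caller, aligner, build or counting rule. Untagged reads are all minus tagged reads, rescaled to CPM of untagged reads. Genes were tested with limma 3.58.1 (R 4.3.3; lmFit, eBayes with trend, two-sided) on log2(CPM + 1.23) for all reads, 1.37 for untagged reads and 1.71 for the fit of 10 libraries, at a mean of 10 CPM or more. Such fold changes understate those of low genes. edgeR 4.0.16 and DESeq2 1.42.0 on recovered reads, centring, quantile normalization, other filters and pseudocounts, and leaving out libraries were alternatives.

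Of 22337 listed genes, 22084 matched the TAIR10.1 table, used for symbols, biotypes and spans, and 5729 overlap another gene. No batch is recorded in the labels. The row that names no gene, with 1 read, was left out. No pair of replicates agreed within sampling noise (chi-square per gene 1.29 to 5.81). In data simulated on the same genes, fits for all and untagged reads recovered 50% and 48% of genes changed by 1 on the log2 scale and 85% and 86% of those changed by 2. They made 3 and 5 false calls, and the fit of 10 libraries made 14 in its own simulated data. The simulated spread between replicates was set and not estimated from these libraries. Genes named are the 10 largest changes in each direction among called genes whose groups do not overlap and whose higher mean is in the upper 50%, and each list's 3 most abundant genes; others are marked. Members and lists were chosen with earlier results of these data known. Planned looks at start sites and protein lengths were not run, since no sequence tables were at hand; gene span was used.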

Additional observations from a re-analysis of the deposited data

How the results depend on the processing

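Against 1469 called genes for all reads, DESeq2 called 870, and leaving out 1 library gave 915 to 1443. Against 1385 for untagged reads, testing every gene with a read gave 313, a minimum mean of 50 CPM gave 912 of 2513 genes tested, DESeq2 gave 740, and leaving out 1 library gave 803 to 1381. The difference between the changes with and without ADPRC gave 0 under each alternative run, 0 to 0 without single libraries. The cause of these moves was not tested, except that a stricter filter tests fewer genes. Over the 68 named genes in each read set, 1838 recomputed results kept direction and side of the threshold, 82 lost the call, 36 gained one and 1 turned direction: the log2 fold change of PSBR among untagged reads was -0.30 and became 0.00167 under quantile normalization. Testing every gene with a read gave 22 of the lost calls. Among them were the untagged calls of AT2G05510, AT2G07671, RBCS3B, CAB1, FBA2, CAT2 and TCTP (limma adjusted p = 0.053 to 0.089). For most genes above, losses in that setting are not listed. Libraries with the same replicate number showed no shared deviations (correlations -0.0062, -0.0019 and 0.0060). This check cannot show whether they came from the same RNA. With the replicate number as a block, 1514 genes were called for all reads and 1400 for untagged reads. Low counts limit U3D and the snRNA genes in the enriched libraries, and most organelle genes.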
